A study of Homo sapiens with 8 samples.

Results

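The 10 genes described here were EGR1, EGR2, EGR3, IER2, IER3, DUSP1, KLF6, KLF10, MYC and NR4A1, which belong to the immediate early genes of mammalian cells. They were taken by symbol from the 49733 gene IDs of the deposited gene-level files, and all 10 were found. Poly-A RNA had been sequenced from HepG2 cells, an established human hepatocellular carcinoma line, after exposure to benzo[a]pyrene (BaP), a combustion product that is a ligand of the aryl hydrocarbon receptor and whose metabolites form DNA adducts. The 4 groups were 2 µM BaP for 24 h, 0.5% DMSO (the vehicle control) for 24 h, 2 µM BaP for 12 h and 0.5% DMSO for 12 h, each with 2 libraries from independent experiments. All cultures had received fresh medium at the start of the exposure, so a comparison of 24 h with 12 h is also one of time since the medium change.

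Immediate early genes are transcribed within minutes of a stimulus such as serum, a growth factor or stress, without a need for new protein. The kinase ERK and related kinases activate serum response factor (SRF), its ELK partners and CREB at their promoters, and most of the transcripts decay quickly once the signal ends. The products are largely transcription factors and feedback inhibitors that shape the later transcription of the cell, and in liver several of them are induced during regeneration and after injury.

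The deposited estimated counts summed to between 2592272 and 16533490 per library, and both extremes were BaP 24 h libraries, replicate 1 being the shallowest. CYP1A1, the classic target of the aryl hydrocarbon receptor, was higher with BaP by 7.74 ± 0.28 (log2 ± SE) at 24 h and by 7.66 ± 0.24 at 12 h. The 10 hepatocyte markers, among them ALB at 1989 to 2875 TPM (the authors' RSEM fraction of transcripts, corrected for length), all had counts in every group. TM4SF4, however, had at most 1 count in a library, under the 3 counts taken as the floor. The summed level of the 10 was 12240 to 12730 TPM in BaP 24 h, 14880 to 16290 in DMSO 24 h, 11780 to 12080 in BaP 12 h and 12810 to 13470 in DMSO 12 h. Of the 5 leukocyte markers, CD3E was at 0 in all 8 libraries and PTPRC had at most 2 counts. The sum of the 5, most of it LYZ at 416 to 755 TPM, was 618 to 758 TPM in BaP 24 h, 718 to 782 in DMSO 24 h, 477 to 482 in BaP 12 h and 445 to 523 in DMSO 12 h. Of the 6 fibroblast markers DCN and LUM were at 0 throughout, COL1A2 and COL3A1 had at most 5 counts, and COL1A1 (18 to 575 counts) and PDGFRB (65 to 337 counts) were detected in every library. Their sum was 4.84 to 9.42 TPM in BaP 24 h, 9.63 to 16.8 in DMSO 24 h, 7.30 to 8.16 in BaP 12 h and 11.4 to 20.6 in DMSO 12 h. The 4 cholangiocyte markers, mainly KRT19 at 264 to 495 TPM and SOX9 at 112 to 167 TPM, summed to 506 to 675 TPM in BaP 24 h, 512 to 586 in DMSO 24 h, 442 to 529 in BaP 12 h and 477 to 677 in DMSO 12 h. The edgeR test described below called LYZ, TTR and PDGFRB higher at 24 h than at 12 h in both cultures and KRT19 in BaP cultures. It called APOB lower with BaP at both times, PDGFRB lower with BaP at 12 h and CD68 higher with BaP at 24 h. The part of these marker levels in the results was not tested.

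The promoters of EGR1, EGR2 and DUSP1 are shown because they hold the response elements for which this gene class is known. The table of promoters from RefSeq (build GRCh38.p14) gives the bases just upstream of each transcript start and the first bases after it. From it, 9 promoters of 6 of the genes were searched (EGR1, EGR2, IER2, DUSP1, KLF6 and NR4A1). IER3 had no promoter there, and promoters of EGR3, KLF10 and MYC were not searched, so the motif results do not cover these genes. A CArG box, the sequence bound by SRF and searched on both strands, was present in EGR1 and in 1 EGR2 promoter, and in 1.29% of all 35116 promoters. The cyclic AMP response element TGACGTCA, a palindrome bound by CREB, was present in DUSP1 and in 1.85% of all promoters. The EGR motif, searched as GCGGGGGCG or GCGTGGGCG on both strands, was present in KLF6 and in 5.77% of all promoters. In the windows that follow, capitals mark the CArG box or the cyclic AMP response element. The EGR1 window (chr5:138465364-138465415, plus strand) has boxes that begin 105 and 83 bases before the transcript start. The EGR2 window (chr10:62816418-62816447, minus strand) begins its box 71 bases before the start. It lies inside the EGR2 gene of GENCODE 29 but in none of its exons. The DUSP1 window (chr5:172771302-172771331, minus strand) begins its element 125 bases before the start. No exon or UTR that GENCODE 29 gives for EGR1, EGR2 or DUSP1 overlapped any of these windows, and other genes were not checked. Each window is written 5′ to 3′ on the strand of its gene.
EGR1: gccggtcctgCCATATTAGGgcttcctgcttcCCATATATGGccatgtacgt
EGR2: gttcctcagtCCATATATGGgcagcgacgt
DUSP1: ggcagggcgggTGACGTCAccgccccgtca

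By edgeR these genes passed the test over time in culture and not between BaP and vehicle. In BaP cultures 5 of the 9 genes tested (EGR1, IER3, NR4A1, IER2 and KLF6) were higher at 24 h than at 12 h and 0 were lower. Of all 14746 genes tested, 10.1% were called higher in that comparison and 17.4% in either direction, by edgeR's quasi-likelihood test at an adjusted p of 0.05. In vehicle cultures 6 of the 9 (the same 5 and DUSP1) were higher at 24 h and 0 were lower, where 2.27% of all genes were called higher and 3.28% in either direction. EGR2 fell below the filter on low counts and was not tested. The median log2 fold change of the 9 genes was 0.57 in BaP cultures and 1.12 in vehicle cultures, against 0.022 and 0.0059 over all genes. The RNA came from bulk cultures, so fewer cells that express a gene and less of its RNA per cell cannot be told apart. DESeq2 called 3 of the genes higher over time in BaP cultures, where it called 958 of all genes higher and 654 lower. It called 6 of the genes higher in vehicle cultures. The count in BaP cultures was 2 (EGR1 and IER3) without BaP 24 h replicate 2 or either BaP 12 h replicate. In vehicle cultures it was 2 (EGR1 and IER3) without DMSO 24 h replicate 2 and 3 (EGR1, IER3 and NR4A1) without DMSO 12 h replicate 1.

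Between BaP and vehicle at the same time none of the 9 genes passed in edgeR. Their median log2 fold change was -0.033 at 24 h and 0.36 at 12 h, against 0.0059 and 0.015 over all genes. For the difference between the 2 times the median was -0.28, against 0.014 over all genes. At 24 h edgeR and DESeq2 each called 0, where edgeR called 5.30% of all genes in either direction, and 2 of the 9 (EGR1 and NR4A1, both at lower levels with BaP) had an unadjusted p under 0.05. At 12 h edgeR called 0, where 8.25% of all genes were called, and 3 (DUSP1, KLF6 and IER3, all at higher levels with BaP) had an unadjusted p under 0.05. DESeq2 called 1 at 12 h, DUSP1, as higher. The difference between the BaP effect at 24 h and that at 12 h was called for 0 of the 9 by edgeR and by DESeq2, with 0.543% of all genes called by edgeR. It had an unadjusted p under 0.05 for 1 gene, EGR1, in edgeR and for 2 in DESeq2. The share of all genes with an unadjusted p under 0.05 is not given here. Counts at that threshold, for these genes and the lists below, therefore have no background beside them. The comparisons share libraries, since each group enters a comparison of treatment and a comparison of time, so their values are given side by side for each gene below.

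**Figure D1:**
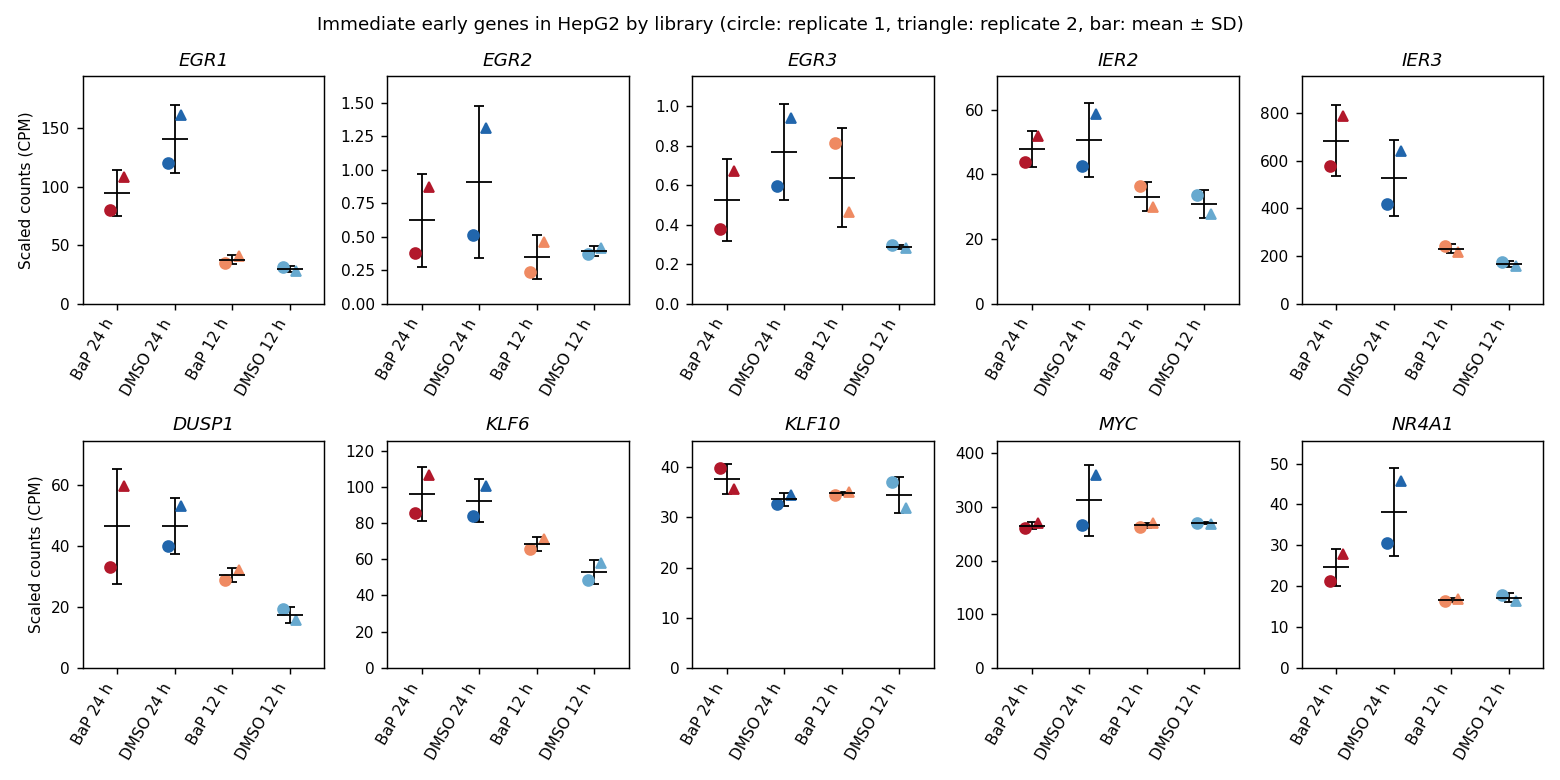
Counts scaled to the size of the library (CPM) of the 10 genes in each of the 8 libraries, with circles for replicate 1, triangles for replicate 2 and a bar for the mean ± SD of the 2 libraries of a group. EGR1 stands at 80.3 CPM or more in every 24 h library and at 40.4 or less in every 12 h library, MYC leaves its level of 260 to 271 CPM in 1 library (DMSO 24 h replicate 2, at 359), and the scale of EGR2 and EGR3 ends near 1 CPM.

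EGR1, EGR2 and EGR3 are zinc finger transcription factors that bind one GC-rich site. EGR1, whose promoter carries the pair of CArG boxes shown above, had the largest fold change over time in vehicle cultures among the 9 genes tested. It had 80.3 and 108 CPM in BaP 24 h, 120 and 161 CPM in DMSO 24 h, 34.9 and 40.4 CPM in BaP 12 h, and 31.4 and 27.5 CPM in DMSO 12 h. Both BaP libraries were lower than both vehicle libraries at 24 h and higher than both at 12 h, and no 24 h library overlapped a 12 h library. From 12 h to 24 h EGR1 rose by 1.35 ± 0.17 on the log2 scale (2.55-fold, adjusted p = 1.6e-04) in BaP cultures and by 2.24 ± 0.17 (4.74-fold, adjusted p = 1.8e-05) in vehicle cultures. Both calls held under all 13 alternatives. BaP over vehicle was -0.54 ± 0.16 at 24 h (95% interval -0.89 to -0.18, adjusted p = 0.080) and 0.36 ± 0.17 at 12 h (-0.01 to 0.73, adjusted p = 0.27), and the difference between the 2 times was -0.89 ± 0.24 (unadjusted p = 0.0021, adjusted p = 0.16). Without BaP 24 h replicate 2, the deepest library, EGR1 was called lower with BaP at 24 h (-0.80, adjusted p = 0.033) and the difference was called (-1.16, adjusted p = 0.025). The 24 h value was -0.37 (adjusted p = 0.14) without BaP 24 h replicate 1 and -0.32 (adjusted p = 0.49) without DMSO 24 h replicate 2, where the difference was -0.68 (adjusted p = 0.55).

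EGR2 and EGR3 were close to the limit of detection, with 1 to 13 counts of EGR2 and 1 to 10 of EGR3 per library. The 2 libraries of a group together held 14 counts of EGR2 in BaP 24 h, 13 in DMSO 24 h, 8 in BaP 12 h and 11 in DMSO 12 h. As CPM these were 0.79 (95% Poisson interval 0.43 to 1.33), 0.76 (0.40 to 1.30), 0.37 (0.16 to 0.73) and 0.39 (0.20 to 0.71), and all 4 intervals overlapped. Such intervals treat reads as independent and cover counting error only, so they leave out the spread between the libraries of a group. For EGR3 the sums were 11 counts in BaP 24 h, 12 in DMSO 24 h, 13 in BaP 12 h and 8 in DMSO 12 h. EGR3 barely passed the filter, and its fitted change over time was -0.02 ± 0.77 in BaP cultures and 1.29 ± 0.74 in vehicle cultures (adjusted p = 0.99 and 0.42), so a difference was not detectable at this depth. EGR4, the remaining gene of the family, was also near the floor, at 0.077 to 1.50 CPM. NAB1 and NAB2 bind EGR proteins and repress them, and NAB2 is itself induced by EGR1 in many cells. NAB2 had 33.8 and 35.6 CPM in BaP 24 h, 32.7 and 39.6 in DMSO 24 h, 27.4 and 27.1 in BaP 12 h, and 25.9 and 24.6 in DMSO 12 h. Its 24 h libraries lay above its 12 h libraries with either treatment, but neither change passed (adjusted p = 0.093 with BaP and 0.056 with vehicle).

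IER3, a short-lived protein linked to the control of cell death and ERK signalling, was the most abundant of the 10 genes. It had 580 and 790 CPM in BaP 24 h, 417 and 643 CPM in DMSO 24 h, 243 and 217 CPM in BaP 12 h, and 175 and 156 CPM in DMSO 12 h. The 24 h libraries of both treatments lay above every 12 h library. BaP and vehicle overlapped at 24 h and did not overlap at 12 h. From 12 h to 24 h IER3 rose by 1.58 ± 0.20 (2.99-fold, adjusted p = 3.0e-04) in BaP cultures and by 1.67 ± 0.20 (3.19-fold, adjusted p = 9.7e-04) in vehicle cultures, and both calls held under all 13 alternatives. The BaP effect on IER3 was 0.38 ± 0.20 at 24 h (adjusted p = 0.32) and 0.47 ± 0.20 at 12 h (adjusted p = 0.21). In the fit to the 12 h libraries alone the 12 h value passed (0.45, adjusted p = 0.0042).

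IER2, a nuclear protein of the same early response, moved less. It had 43.9 and 51.8 CPM in BaP 24 h, 42.5 and 58.7 in DMSO 24 h, 36.3 and 29.9 in BaP 12 h, and 33.7 and 27.6 in DMSO 12 h, so every 24 h library lay above every 12 h library and the treatments overlapped at both times. It rose over time by 0.57 ± 0.17 (adjusted p = 0.035) in BaP cultures and by 0.70 ± 0.17 (adjusted p = 0.032) in vehicle cultures. These calls were close to the threshold: the BaP one failed without BaP 12 h replicate 1 (adjusted p = 0.063), BaP 12 h replicate 2 (0.30) or BaP 24 h replicate 2 (0.35) and with DESeq2 (0.065), and the vehicle one without DMSO 12 h replicate 1 (0.056), DMSO 12 h replicate 2 (0.21) or DMSO 24 h replicate 2 (0.45). With BaP the IER2 level differed from vehicle by -0.03 ± 0.17 at 24 h (95% interval -0.40 to 0.33) and 0.10 ± 0.17 at 12 h (-0.25 to 0.46).

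DUSP1, a phosphatase that inactivates the MAP kinases and so closes a feedback loop on the early response, had the largest difference between BaP and vehicle at 12 h among the 9 genes apart from the scarcely counted EGR3. It had 33.0 and 59.5 CPM in BaP 24 h, 40.0 and 52.9 CPM in DMSO 24 h, 28.7 and 32.1 CPM in BaP 12 h, and 19.3 and 15.5 CPM in DMSO 12 h. The 2 BaP 24 h libraries stood on either side of the vehicle libraries, whereas at 12 h both BaP libraries were above both vehicle libraries. BaP over vehicle was 0.10 ± 0.24 at 24 h (adjusted p = 0.86) and 0.81 ± 0.24 at 12 h (1.75-fold, adjusted p = 0.077). The 12 h value passed with DESeq2 (adjusted p = 0.021) and in the fit to the 12 h libraries alone (1.6e-04). It also passed in the fits without BaP 24 h replicate 1 or BaP 24 h replicate 2, at 0.79 to 0.81 on the log2 scale in these 4 fits. It did not pass in any fit that lacked a 12 h library. The value was 0.88 and 0.71 without BaP 12 h replicates 1 and 2, and 0.98 and 0.64 without DMSO 12 h replicates 1 and 2.

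Over time the change of DUSP1 was 0.69 ± 0.24 in BaP cultures (adjusted p = 0.075), and in vehicle cultures it rose by 1.40 ± 0.24 (2.64-fold, adjusted p = 0.014). The vehicle call was lost without DMSO 12 h replicate 1 (adjusted p = 0.053), DMSO 12 h replicate 2 (0.097) or DMSO 24 h replicate 2 (0.10). Without BaP 24 h replicate 1, the shallowest library, the BaP value passed (0.95, adjusted p = 2.1e-04), and without BaP 24 h replicate 2 it was 0.11 (adjusted p = 0.84). The difference between the BaP effects at the 2 times was -0.71 ± 0.34 (adjusted p = 0.56), and it passed without BaP 24 h replicate 2 (-1.29, adjusted p = 0.023).

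KLF6 and KLF10 are Krüppel-like zinc finger factors, of which KLF10 is best known as an early target of TGF-β. KLF6 had 85.5 and 107 CPM in BaP 24 h, 84.0 and 101 in DMSO 24 h, 65.7 and 71.0 in BaP 12 h, and 48.5 and 57.9 in DMSO 12 h. The treatments overlapped at 24 h, and at 12 h both BaP libraries lay above both vehicle libraries. KLF6 rose over time by 0.51 ± 0.14 (adjusted p = 0.019) in BaP cultures and by 0.79 ± 0.14 (adjusted p = 0.0040) in vehicle cultures. Those fold changes are of scaled counts, whereas TPM are corrected for length and lack that scaling. In TPM the BaP direction turned: KLF6 had 60.6 and 58.9 TPM in BaP 24 h, against 63.5 and 63.7 TPM in BaP 12 h. The BaP call failed without BaP 12 h replicate 1 (adjusted p = 0.14), BaP 12 h replicate 2 (0.091) or BaP 24 h replicate 2 (0.32 on the log2 scale, adjusted p = 0.27), and the vehicle call without DMSO 12 h replicate 1 (0.065) or DMSO 24 h replicate 2 (0.11). BaP over vehicle was 0.09 ± 0.14 at 24 h (adjusted p = 0.79) and 0.36 ± 0.14 at 12 h (adjusted p = 0.13). The 12 h value passed without BaP 24 h replicate 1 or BaP 24 h replicate 2, but in no fit that lacked a 12 h library. There it was 0.41 and 0.29 without BaP 12 h replicates 1 and 2, and 0.25 and 0.48 without DMSO 12 h replicates 1 and 2.

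KLF10 stayed within a narrow range, at 39.8 and 35.6 CPM in BaP 24 h, 32.7 and 34.5 in DMSO 24 h, 34.5 and 35.0 in BaP 12 h, and 37.0 and 31.9 in DMSO 12 h. Its highest library was 1.25 times its lowest, the smallest such ratio of the 10 genes. Its change over time was 0.09 ± 0.14 in BaP cultures (95% interval -0.20 to 0.38) and -0.04 ± 0.13 in vehicle cultures (-0.32 to 0.24). The BaP effect on KLF10 was 0.15 ± 0.14 at 24 h (-0.15 to 0.44) and 0.01 ± 0.13 at 12 h (-0.26 to 0.29).

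**Figure D2:**
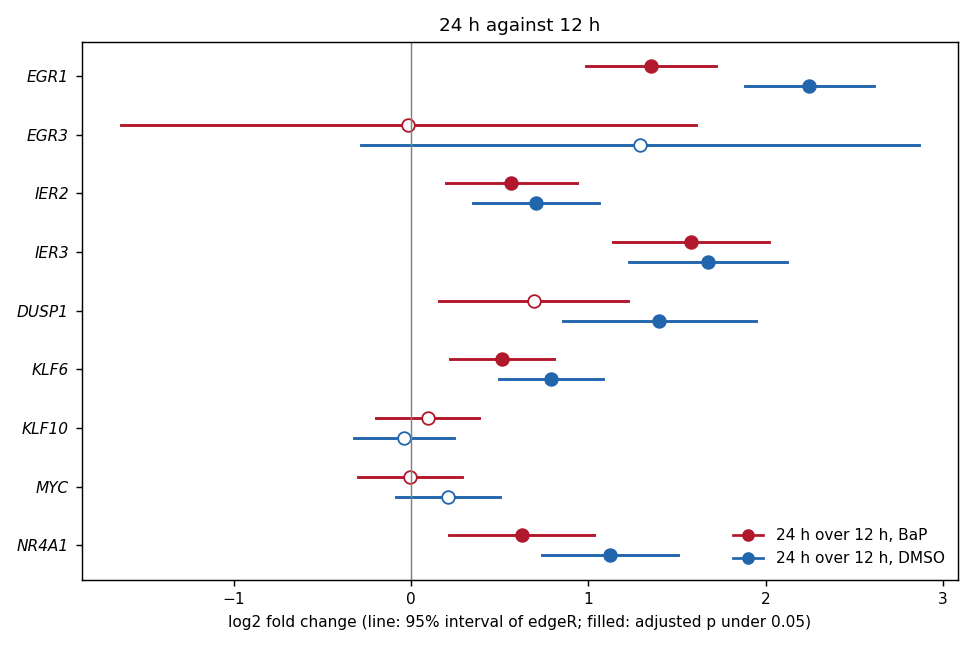
Log2 fold change of 24 h over 12 h for the 9 genes tested, in BaP cultures (upper point of each gene) and vehicle cultures (lower point), with 95% intervals and filled points where the adjusted p of edgeR was under 0.05. EGR1, IER2, IER3, KLF6 and NR4A1 are filled in both, DUSP1 in vehicle cultures alone, and MYC and KLF10 lie within 0.21 of 0.

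MYC, a transcription factor that with its partner MAX drives ribosome production and growth, was the second most abundant of the genes. It had 260 and 270 CPM in BaP 24 h, 266 and 359 CPM in DMSO 24 h, 262 and 270 CPM in BaP 12 h, and 271 and 268 CPM in DMSO 12 h. Of the 8 libraries, 7 lay between 260 and 271 CPM, and DMSO 24 h replicate 2 stood apart from them. That library held 5590972 counts, against 11844661 in DMSO 24 h replicate 1. Each of the genes described here, not MYC alone, had a higher CPM in it than in DMSO 24 h replicate 1. The BaP effect on MYC was -0.23 ± 0.14 at 24 h (95% interval -0.53 to 0.06, adjusted p = 0.37) and -0.02 ± 0.14 at 12 h (-0.31 to 0.27). Over time MYC changed by -0.01 ± 0.14 in BaP cultures (-0.30 to 0.29) and by 0.21 ± 0.14 in vehicle cultures (-0.08 to 0.50, adjusted p = 0.50), and the vehicle value was -0.02 without DMSO 24 h replicate 2.

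Of 25 MYC target genes tested, 0 rose and 2 fell in BaP cultures (NOP56 and TERT). Of all 14746 genes, 1490 rose and 1083 fell there, 17.4% in either direction. In vehicle cultures 0 of the 25 rose and 3 fell (ODC1, MRTO4 and TERT), where 334 of all genes rose and 149 fell (3.28%). Between BaP and vehicle edgeR and DESeq2 called 0 of the 25 at 24 h and at 12 h, with 1 at an unadjusted p under 0.05 at each time. There edgeR called 5.30% and 8.25% of all genes. TERT, the catalytic subunit of telomerase, had 10.5 and 7.83 CPM in BaP 24 h, 7.56 and 9 in DMSO 24 h, 15.4 and 15.01 in BaP 12 h, and 16.5 and 14.1 in DMSO 12 h. It fell by 0.83 ± 0.20 in BaP cultures (adjusted p = 0.0095) and by 0.91 ± 0.19 in vehicle cultures (adjusted p = 0.013). The BaP call was lost in 3 of the fits without a library, BaP 24 h replicate 2 (adjusted p = 0.31) and either BaP 12 h replicate (0.054 and 0.071). The vehicle call was lost in 3 as well, without DMSO 24 h replicate 1 (0.24), DMSO 24 h replicate 2 (0.080) or DMSO 12 h replicate 1 (0.086). ODC1, which makes polyamines, had 203 and 195 CPM in DMSO 24 h, against 301 and 296 CPM in DMSO 12 h (-0.58 ± 0.13, adjusted p = 0.022). With each of the 8 libraries left out in turn, 0 of the target genes were called every time in either culture.

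Among 17 tested genes of the MYC network, MXI1, a repressor that competes for MAX, rose over time by 0.63 ± 0.19 in BaP cultures (adjusted p = 0.028) and by 0.80 ± 0.18 in vehicle cultures (adjusted p = 0.022). Neither call held with DESeq2 (adjusted p = 0.13 and 0.071). MXI1 was the only gene of the list called in vehicle cultures, where 3.28% of all genes were called. In BaP cultures MLXIPL also rose and MGA fell. So 2 of the 17 rose and 1 fell there, where 10.1% of all genes rose and 17.4% were called in either direction. MAX itself stayed at 29.3 to 33.9 CPM in all 8 libraries. MXD1, another MAX partner, was called higher with BaP at 12 h, with 19.8 and 19.3 CPM, against 10.4 and 10.2 CPM in vehicle (0.92 ± 0.20, adjusted p = 0.0070). At 24 h edgeR and DESeq2 called 0 of the 17 between BaP and vehicle, and 2 had an unadjusted p under 0.05 in edgeR. The calls of MXI1, MLXIPL, MGA and MXD1 were each lost in at least 1 fit that lacked a library. That of MLXIPL was also lost in edgeR with DESeq2's size factors (adjusted p = 0.0503) and without the filter (0.086). It was lost as well with replicate number as a block (0.052) and in the fit to the BaP libraries alone (0.10).

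NR4A1 is an orphan nuclear receptor that acts as a transcription factor without a known hormone. It had 21.4 and 27.8 CPM in BaP 24 h, 30.6 and 45.8 in DMSO 24 h, 16.3 and 16.9 in BaP 12 h, and 17.9 and 16.5 in DMSO 12 h. At 24 h both BaP libraries lay below both vehicle libraries, and at 12 h the treatments overlapped. NR4A1 rose over time by 0.62 ± 0.19 (1.54-fold, adjusted p = 0.036) in BaP cultures and by 1.12 ± 0.18 (2.18-fold, adjusted p = 0.0026) in vehicle cultures. BaP over vehicle was -0.55 ± 0.19 at 24 h (95% interval -0.95 to -0.15, adjusted p = 0.11) and -0.05 ± 0.19 at 12 h. The 24 h value was -0.27 (adjusted p = 0.63) without DMSO 24 h replicate 2 and -0.84 (adjusted p = 0.056) without DMSO 24 h replicate 1. The BaP call over time failed without BaP 12 h replicate 1 (adjusted p = 0.16), BaP 12 h replicate 2 (0.17) or BaP 24 h replicate 2 (0.36 on the log2 scale, adjusted p = 0.50) and with DESeq2 (0.089), and the vehicle call without DMSO 24 h replicate 2 (0.070). The other receptors of the family, NR4A2 and NR4A3, were at 0 to 0.47 CPM in every library.

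**Figure D3:**
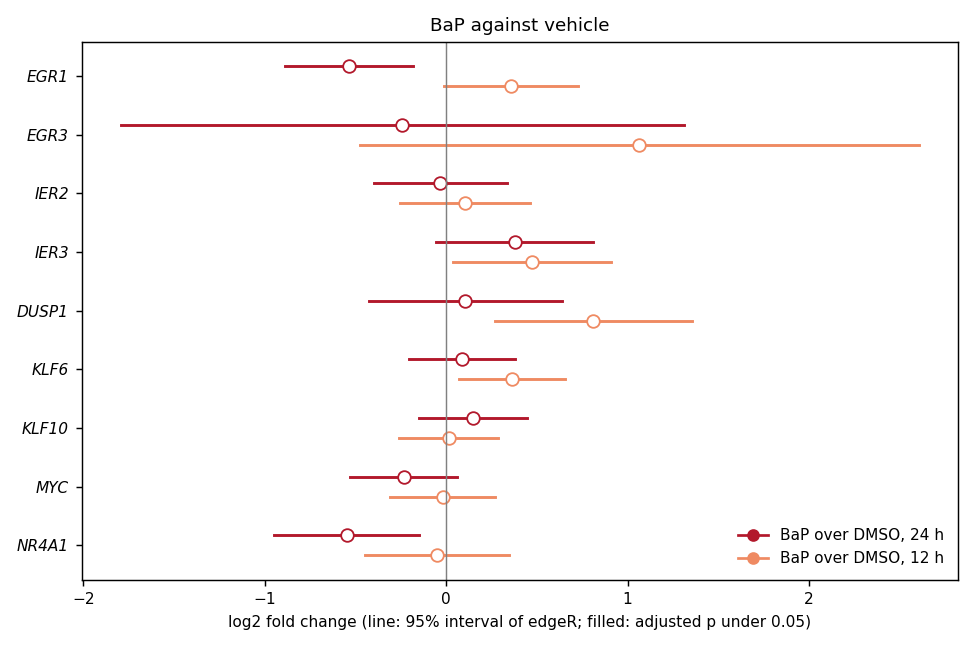
Log2 fold change of BaP over vehicle for the 9 genes tested, at 24 h (upper point of each gene) and 12 h (lower point), with 95% intervals of edgeR. All points are open because no gene passed, the intervals of EGR1 and NR4A1 at 24 h lie below 0, and those of DUSP1, IER3 and KLF6 at 12 h lie above 0.

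A list of 30 further immediate early genes, of which 26 were tested, gave counts in the same comparisons. Over time 8 rose and 1 fell in BaP cultures (median 0.30), where 10.1% of all genes rose and 17.4% were called in either direction. In vehicle cultures 10 rose and 0 fell (median 0.69), where 2.27% of all genes rose and 3.28% were called in either direction. The medians over all genes were 0.022 and 0.0059. FOS, the partner of JUN in the factor AP-1, had 6.38 and 17.7 CPM in BaP 24 h, 22.6 and 30.4 in DMSO 24 h, 4.88 and 5.00 in BaP 12 h, and 1.62 and 2.31 in DMSO 12 h. As with EGR1, its BaP libraries were below both vehicle libraries at 24 h and above both at 12 h. FOS rose over time by 1.51 ± 0.35 in BaP cultures (adjusted p = 0.016) and by 3.72 ± 0.37 in vehicle cultures (adjusted p = 6.7e-04). The BaP call failed without BaP 24 h replicate 2 (0.36, adjusted p = 0.68) or either BaP 12 h replicate (adjusted p = 0.095 and 0.14). The difference between its BaP effects at the 2 times was -2.20 ± 0.52 (adjusted p = 0.15), and it passed with DESeq2 (-2.36, adjusted p = 0.0033) and without BaP 24 h replicate 1 (-1.87, adjusted p = 0.0019) or BaP 24 h replicate 2 (-3.36, adjusted p = 1.3e-04). CCN2, a secreted matrix protein, rose by 1.70 ± 0.20 in BaP cultures and by 1.71 ± 0.20 in vehicle cultures (adjusted p = 1.1e-04 and 5.0e-04). With each library left out in turn, the list's calls that remained every time were CCN2 and TNFAIP3 in BaP cultures and CCN2, FOS and ZFP36 in vehicle cultures.

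Between BaP and vehicle the list's counts at the 2 times were unequal, and the difference itself was called for 0 of the 26 genes by edgeR (7 at an unadjusted p under 0.05) and for 2, FOS and ZFP36, by DESeq2. At 24 h 2 were higher with BaP (BTG2 and FOSL1) and 2 were lower (SGK1 and TNFAIP3), with a list median of 0.076. At 12 h 11 were higher and 2 lower, with a median of 0.64, and the 2 lower were again SGK1 and TNFAIP3. Of all genes, 5.30% were called in either direction at 24 h and 8.25% at 12 h. BTG2, an antiproliferative gene activated by p53, had 36.8 and 28.3 CPM in BaP 24 h, against 17.1 and 15 CPM in DMSO 24 h (0.94 ± 0.17, adjusted p = 0.0033), and 49.6 and 43.3 CPM in BaP 12 h, against 18.0 and 16.8 CPM in DMSO 12 h (1.41 ± 0.15, adjusted p = 9.7e-06). ZFP36, which speeds the decay of short-lived mRNAs, was called at 12 h, with 39.3 and 38.4 CPM with BaP, against 23.4 and 20.4 CPM with vehicle (0.82 ± 0.16, adjusted p = 0.0042). TNFAIP3, an inhibitor of NF-κB, had 41.6 and 39.1 CPM in BaP 24 h, against 56.0 and 65.4 CPM in DMSO 24 h (-0.59 ± 0.13, adjusted p = 0.016). That call failed without BaP 24 h replicate 2 (adjusted p = 0.15), DMSO 24 h replicate 1 (0.058) or DMSO 24 h replicate 2 (0.19). With each library left out in turn, BTG2 and FOSL1 remained called every time at 24 h, and ATF3, BTG2 and FOSL1 at 12 h.

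Feedback inhibitors of ERK signalling formed the next list, with 16 of 17 genes tested. Over time 7 rose and 2 fell in BaP cultures, and 5 rose and 0 fell in vehicle cultures (DUSP5, DUSP6, ERRFI1, SPRY1 and SPRY4). Of all genes, 10.1% rose and 17.4% were called in either direction in BaP cultures, and 2.27% and 3.28% in vehicle cultures. DUSP6, a phosphatase that acts on ERK, had 271 and 332 CPM in BaP 24 h, 264 and 337 in DMSO 24 h, 125 and 141 in BaP 12 h, and 111 and 112 in DMSO 12 h. It rose by 1.18 ± 0.14 in BaP cultures (adjusted p = 4.5e-05) and by 1.43 ± 0.14 in vehicle cultures (adjusted p = 4.8e-05), and its BaP and vehicle libraries overlapped at 24 h but not at 12 h. SPRY1, an inhibitor of receptor tyrosine kinase signalling, rose by 1.31 ± 0.13 in BaP cultures (adjusted p = 1.0e-05) and by 0.99 ± 0.13 in vehicle cultures (adjusted p = 3.3e-04). Between BaP and vehicle 1 gene of the list, DUSP16, was called at 24 h (lower), where 5.30% of all genes were called. DUSP8 (higher) and SPRY1 (lower) were called at 12 h, where 8.25% of all genes were called. With each library left out in turn, DUSP5, DUSP6, ERRFI1 and SPRY1 remained called over time in BaP cultures, DUSP6 and SPRY1 in vehicle cultures, and 0 genes between BaP and vehicle.

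Genes that EGR1 is known to activate made up a list of 14, of which 13 were tested. Over time 4 rose and 0 fell in BaP cultures, and 4 rose and 0 fell in vehicle cultures, with ICAM1, PDGFB and VEGFA among them in both. Of all genes, 10.1% rose in BaP cultures and 2.27% in vehicle cultures. PDGFB, a growth factor chain, had 16.9 and 17.8 CPM in BaP 24 h, 13.8 and 12.6 in DMSO 24 h, 4.53 and 5.08 in BaP 12 h, and 5.83 and 3.56 in DMSO 12 h. It rose by 1.85 ± 0.23 (adjusted p = 5.6e-05) in BaP cultures and by 1.50 ± 0.22 (adjusted p = 0.0012) in vehicle cultures. Between BaP and vehicle 2 of the 13 were higher at 24 h, TGFB1 among them, and at 12 h 1 was higher and 2 were lower (IGF2 and TP73). Of all genes, 5.30% were called in either direction at 24 h and 8.25% at 12 h. With each library left out in turn, ICAM1 and PDGFB remained called over time in both cultures and VEGFA in vehicle cultures, while TGFB1, IGF2 and TP73 were each lost between BaP and vehicle in at least 1 fit. Of 15 genes for the factors that act on early promoters (SRF, its ELK and MRTF partners, CREB and the EGR cofactors), edgeR and DESeq2 called 0 in each of the 5 comparisons. In edgeR 0 to 4 of the 15 had an unadjusted p under 0.05. SRF itself was at 113 to 155 CPM in all 8 libraries. Of 13 other KLF and SP genes tested, 3 rose over time in BaP cultures (KLF3, KLF9 and KLF12), where 10.1% of all genes rose. At 12 h 1 (KLF12) was lower with BaP, where 8.25% of all genes were called in either direction. For that list edgeR and DESeq2 called 0 in vehicle cultures over time and between BaP and vehicle at 24 h, with 4 and 2 genes at an unadjusted p under 0.05 in edgeR. The 4 KLF calls were each lost in at least 1 fit that lacked a library.

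**Figure D4:**
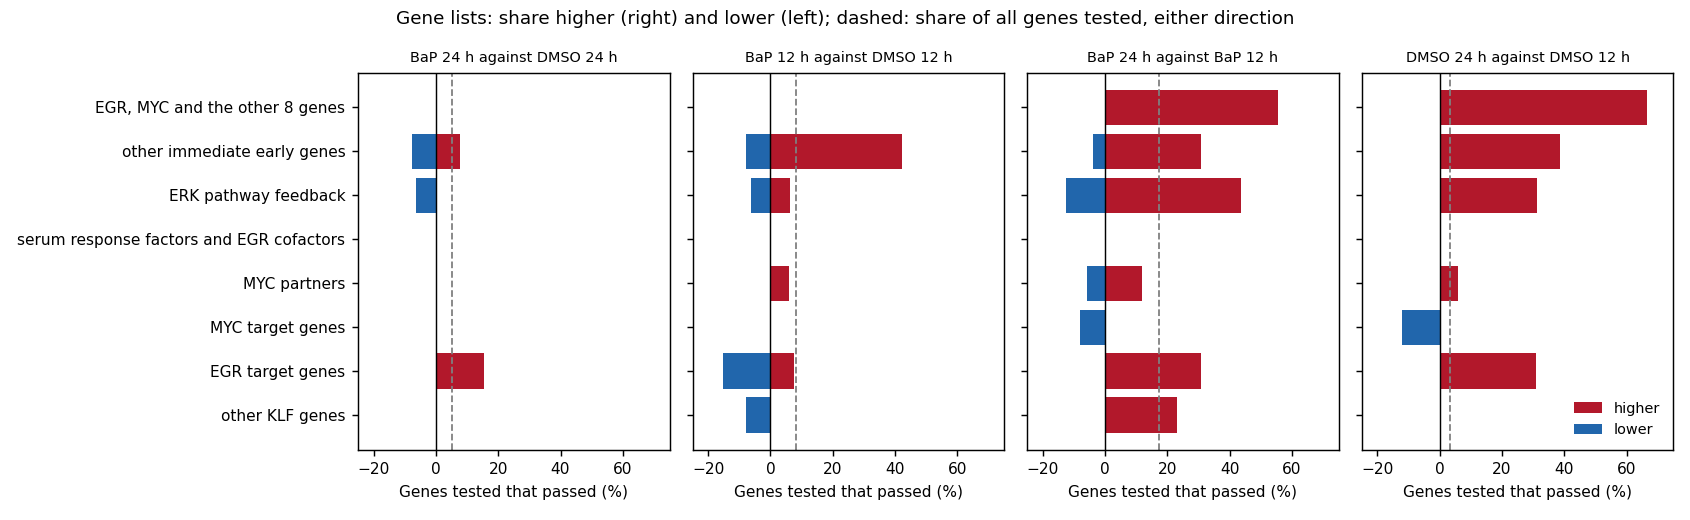
Share of the tested genes of each list that were called higher (right of 0) or lower (left of 0), for BaP against vehicle at 24 h and 12 h and for 24 h against 12 h in BaP and vehicle cultures. The dashed line is the share of all 14746 genes called in either direction (5.30%, 8.25%, 17.4% and 3.28%), and the 10 genes described here have bars in the 2 time panels alone.

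Compared per length, as TPM, IER3 stood highest. It averaged 380 TPM over the 8 libraries (152 to 639), followed by MYC at 139 (111 to 174) and KLF6 at 60.9 (39.9 to 82.3). The ranges of IER3 and MYC overlapped, those of MYC and KLF6 did not, and those of EGR1 (mean 26.7), IER2 (23.7), DUSP1 (21.7), KLF10 (13.6) and NR4A1 (11.03) overlapped their neighbours. EGR2 (0.27) and EGR3 (0.25) lay far below. IER3 exceeded 99.0% of the gene IDs detected and EGR3 36.8%. By its mean, the place of EGR1 depended on the group. It averaged 31.9 ± 1.2 TPM in BaP 24 h and 49.7 ± 7.8 in DMSO 24 h, above the means of IER2 and DUSP1. In BaP 12 h it averaged 14.4 ± 1.7 and in DMSO 12 h 10.9 ± 1.2 (SD, n = 2), below them. Against IER2 the order held in every library. Against DUSP1 it did not: in BaP 24 h replicate 2 DUSP1 had 33.3 TPM and EGR1 32.7. In DMSO 12 h replicate 2 DUSP1 had 9.90 TPM and EGR1 10.04.

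The transcript-level files show which isoforms carried the counts. EGR1 had all of its counts in EGR1-201, MYC had 94.6% to 98.4% in MYC-202, IER3 had 93.9% to 97.4% in IER3-201 and KLF10 had 94.8% to 100% in KLF10-201. For IER2 and DUSP1 the split was unstable between libraries of a group. IER2-201 held 82.3% and 55.5% of the gene's counts in BaP 24 h, 97.7% and 58.4% in DMSO 24 h, 44.7% and 72.0% in BaP 12 h, and 72.1% and 70.9% in DMSO 12 h. DUSP1-201 held 100% and 46.4% in BaP 24 h. NR4A1-204 held the most NR4A1 counts in 7 of the 8 libraries, and in BaP 12 h replicate 2 it held 40.3% against 49.96% in NR4A1-202. NR4A1-202 held 25.3% and 49.96% in BaP 12 h, against 7.65% and 9.68% in DMSO 12 h. These shares are RSEM's estimates and no test was run on them.

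For KLF6 the scaled counts and the TPM parted. By counts its treatments overlapped at 24 h, as given above, but it stood at 59.7 ± 1.2 TPM in BaP 24 h, against 78.6 ± 5.3 in DMSO 24 h (SD, n = 2). Over time the measures parted in BaP cultures, where the count-based value was higher at 24 h. Both 24 h libraries were lower in TPM, at 60.6 and 58.9 TPM in BaP 24 h, against 63.5 and 63.7 TPM in BaP 12 h. In vehicle cultures both were higher, with 74.8 and 82.3 TPM in DMSO 24 h, against 39.9 and 43.4 TPM in DMSO 12 h. No test was run on TPM, which are corrected for length but lack the scaling of the CPM, so the measures differ in both. EGR1, with all its counts in 1 transcript, had 80.3 and 108 CPM in BaP 24 h but 31.0 and 32.7 TPM. In BaP 12 h it had 34.9 and 40.4 CPM, and 13.2 and 15.55 TPM. The parts of scaling and of length in the KLF6 values were not tested. Group means parted for other genes as well. KLF10 in BaP cultures averaged 37.7 CPM at 24 h and 34.8 at 12 h, but 13.9 and 14.1 TPM. MYC at 12 h averaged 266 CPM with BaP and 270 with vehicle, but 141.3 and 137.5 TPM. The coding transcript KLF6-206, the longest KLF6 transcript that GENCODE 29 lists among those in the files at 4656 bases, held 73.9% and 72.5% of the counts in BaP 24 h and 64.1% and 67.9% in DMSO 24 h. It held 62.6% and 63.5% in BaP 12 h and 64.3% and 68.1% in DMSO 12 h, so both BaP 24 h libraries, the shallowest and the deepest of the study, were above the other 6. The transcript KLF6-202, listed as a processed transcript, held 1.68% and 0.15% in BaP 24 h and between 3.54% and 6.77% in the other 6 libraries.

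**Figure D5:**
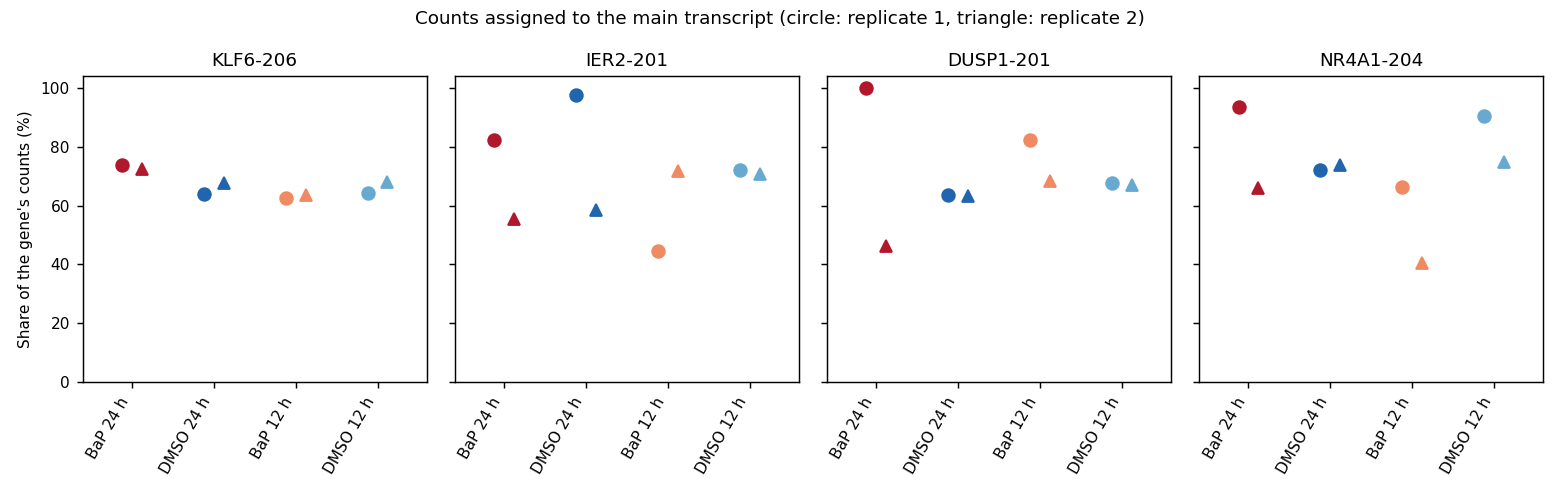
Share of each gene's estimated counts in its leading transcript, for KLF6, IER2, DUSP1 and NR4A1, in each library (circles for replicate 1, triangles for replicate 2). KLF6-206 lies within 62.6% to 73.9% with both BaP 24 h libraries on top, while the replicates of IER2-201 lie apart in BaP 24 h, DMSO 24 h and BaP 12 h and those of DUSP1-201 lie at 100% and 46.4% in BaP 24 h.

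The genes with the profile most like each of these across the 8 libraries were named by the Pearson correlation of log2 CPM over 7118 genes, as a description, since libraries of a group share their treatment and time. EGR1 was most like DEPP1 (r = 0.988, Spearman rho = 0.976) and SERPIND1 (0.983 and 0.905). IER3 was most like NR0B2 (0.992 and 0.976), IER2 like RPL14 (0.994 and 1) and KLF6 like CCL20 (0.990 and 0.976). DUSP1 was most like ZFP36 (0.975 and 0.952), another immediate early gene, and KLF10 like ACP2 (0.973 and 0.976). MAPK3 was among the 2 genes nearest to NR4A1 (0.973 and 0.976). For MYC the 2 nearest were H1-10 (r = 0.905) and JUND (r = 0.895), with rho of 0.381 and -0.238, and MYC's range was set by the 1 library that stood apart. None of the nearest genes was among the 10 themselves.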

How the data were processed

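The deposited files, 16 in number, hold RSEM output at the gene and the transcript level, a pair for each of 8 libraries. Per the submitters' processing notes, reads were aligned with Bowtie 0.12.7 and assigned with RSEM 1.1.7 to Ensembl release 58. The genome build and whether counting used strand are not given in the sources used here. The deposited estimated counts are not normalised, and the deposited fractions are the authors' length-corrected shares of all transcripts, shown here as TPM. Symbols were found for 82.0% of the 49733 gene IDs, which held 96.5% of the counts. Estimated counts were rounded and fitted in R 4.3.3 with edgeR 4.0.16. Genes passed filterByExpr (minimum count 10, minimum total 15), libraries were scaled by TMM, and a robust quasi-likelihood model with 1 mean per group was fitted to all 8 libraries and tested on simulated counts. Tests were two-sided, with Benjamini-Hochberg adjustment over 14746 genes and a threshold of 0.05, and the SE is the log2 fold change divided by the square root of F. CPM use the TMM-scaled library sizes, and TPM do not. With 2 libraries per group, p-values measure the spread between these libraries. A gene without counts may hold up to 3, which is 0.201 to 1.13 CPM depending on the library. The genes and lists were chosen with earlier results of these data known. The genes named are the 10, at most 4 called genes with the smallest p per list and comparison, and fixed relatives (EGR4, NR4A2, NR4A3, NAB1, NAB2, SRF, MAX, FOS, FOSL1, ATF3, JUN, CYP1A1, CDKN1A), and genes beyond this rule that a count of 5 or fewer calls took were named after their values were seen. Alternatives were DESeq2's size factors, no filter, DESeq2 1.42.0, a replicate block, fits restricted to the groups compared, and fits lacking each library in turn. Of 168 list genes, 3 had no ID. A few genes within these rules are not reported here.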

Additional observations from a re-analysis of the deposited data

How the results depend on the processing

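The calls of EGR1 and IER3 over time were kept in BaP and vehicle cultures under all 13 settings run, and the lost or gained calls of the other genes are given here or beside their values above. The cause of each change was not tested. By DESeq2, 303 genes were higher with BaP at 24 h and 289 at 12 h, and over time in BaP cultures 958 were higher and 654 lower, with 3 of the 9 genes higher there and 1 higher with BaP at 12 h. Without a filter, 559 genes were lower with BaP at 24 h (2 of the 9, EGR1 and NR4A1), 2 of the 9 were higher at 12 h (DUSP1 and IER3), DUSP1 was higher over time in BaP cultures (0.65, adjusted p = 3.8e-04), the difference was called positive for 171 genes and negative for 69 (1 of them EGR1), and 341 were lower over time in vehicle cultures. With the groups compared alone, 235 genes were called up and 144 down with BaP at 24 h, 2 of the 9 were higher at 12 h, and 511 were higher and 342 lower over time in vehicle cultures. Leaving out a library in turn gave 95 to 1230 calls up and 74 to 726 down with BaP at 24 h, 174 to 724 and 250 to 969 at 12 h, 24 to 249 and 4 to 99 for the difference, 496 to 2109 and 263 to 1473 over time in BaP cultures, and 81 to 589 and 6 to 423 in vehicle cultures. For the 9 genes the counts were then 0 to 1 lower at 24 h, 0 to 2 higher at 12 h, 0 to 2 negative for the difference, and 2 to 6 higher over time with either treatment. Signs turned only for genes that did not pass. With BaP at 24 h, leaving out a library gave -0.92 to 0.017 for EGR3, -0.27 to 0.19 for IER2, -0.47 to 0.38 for DUSP1 and -0.10 to 0.21 for KLF6. At 12 h it gave -0.055 to 0.26 for IER2, -0.11 to 0.13 for KLF10 (-0.0057 without a filter, -0.0049 with the groups compared alone) and -0.13 to 0.017 for NR4A1. The difference ran from -0.38 to 0.085 for IER2, -0.38 to 0.24 for IER3 and -0.42 to 0.011 for MYC. Over time the ranges were -0.70 to 0.36 for EGR3 and -0.038 to 0.015 for MYC in BaP cultures, and -0.17 to 0.069 for KLF10 and -0.019 to 0.41 for MYC in vehicle cultures. The labels do not say that replicate numbers pair libraries across groups, and replicate differences correlated at 0.42 between BaP and vehicle at 12 h, -0.24 between BaP 24 h and BaP 12 h, and -0.07 to 0.06 elsewhere. A fit with the number as a replicate block called EGR1 lower with BaP at 24 h (1 of the 9, adjusted p = 0.042) and lost IER2 over time in both treatments (0.055 with BaP and 0.053 with vehicle). Crossing the numbers for BaP over time, chosen after seeing the data, called 1452 genes higher and 1168 lower, and 1087 and 870 without the block in the same libraries. Depth limits EGR2 and EGR3, and 2 libraries a group limit every other comparison.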
